A study of Mus musculus with 30 samples.

Results

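The genes described here make cholesterol, carry it out of the cell, or bring lipid in and store it. A list of 40 gene symbols was matched to the platform annotation of the array, and 35 of the 40 had a transcript cluster with exactly 1 symbol, out of 19479 genes so annotated and 22103 clusters in all. The other 5 (Acat2, Srebf1, Nr1h2, Soat1 and Scd2) were not analysed here. Each of the 35 had 1 cluster. By role, 6 act in the mevalonate steps, 10 in the steps from squalene to cholesterol, 4 in sterol sensing, 5 in efflux and its control, 3 in fatty acid synthesis and 7 in uptake and lipid droplets. The 16 genes of the mevalonate and later steps are called the synthesis genes below, and the 12 of the efflux and uptake roles the efflux and uptake genes.

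The arrays compared TREM1 knockout (TREM1-/-, KO) with wild-type (TREM1+/+, WT) male C57BL/6 mice aged 8 to 10 weeks. TREM1 is an activating receptor of neutrophils and monocytes that amplifies inflammatory signalling. All mice had the middle cerebral artery occluded for 45 min, and cells were taken from the ischemic hemisphere after 48 h of reperfusion, so no uninjured group enters any comparison. Cells were sorted by flow cytometry into neutrophils (CD45 high, CD11b+, Ly6G+), macrophages (CD45 high, CD11b+, Ly6G-) and microglia (CD45 low, CD11b+, and Ly6G+ as the labels print it). There were 5 KO and 4 WT neutrophil arrays, 6 KO and 3 WT macrophage arrays, and 6 KO and 6 WT microglia arrays. Whether each array held cells of 1 mouse or of several was not stated, and the labels call the arrays biological replicates. The macrophage gate can hold recruited monocytes as well as resident cells, and in sorted bulk samples fewer cells of a type and less RNA per cell cannot be told apart.

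Cells build cholesterol from acetyl-CoA through mevalonate and squalene. When sterol is scarce in the endoplasmic reticulum, SCAP escorts SREBP2 to the Golgi, where it is cleaved to a transcription factor that raises the whole synthesis pathway, and INSIG1 holds SCAP back when sterol is plentiful. When sterol is in excess, oxysterols and late intermediates of synthesis activate the LXR nuclear receptors, which raise the exporters ABCA1 and ABCG1. In the injured brain, phagocytes take up cholesterol-rich myelin and dead cells, and scavenger receptors, lipid droplets and efflux are the usual ways of handling that load.

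Before the results, the arrays themselves need describing. The targeted gene was lower in KO neutrophils, where Trem1 had a lowest, median and highest log2 intensity of 15.12, 16.15 and 16.39, against 16.82, 17.24 and 17.51 in WT neutrophils. Trem1 overlapped between genotypes in macrophages (12.81 to 14.39 in KO, 13.59 to 14.19 in WT) and in microglia (7.50 to 9.21 in KO, 7.62 to 10.44 in WT), and where its probes lie relative to the deletion was not given. The sorted types carried their markers: the 9 measured neutrophil markers averaged 14.52 to 15.93 per array in KO neutrophils and 15.83 to 16.79 in WT neutrophils, against 6.28 to 10.42 over all macrophage and microglia arrays. Among microglia, that neutrophil average reached 9.02 in a KO array, against at most 7.13 in WT arrays. WT neutrophil replicates 2 to 4 stood apart in broadly expressed clusters, whereas WT replicate 1 lay within the KO range. A set of 2015 broadly expressed clusters was taken as those at 11 log2 units or more on every macrophage and microglia array and within 1 unit between the WT means of those types. Neutrophil arrays were not used in that choice, so it does not show these clusters to be broadly expressed in neutrophils. Of these, 5 to 24 per array lay more than 3 units below their mean over the macrophage and microglia arrays in KO neutrophils, against 20, 89, 109 and 204 in WT neutrophil replicates 1 to 4. WT neutrophil replicate 4 also had the lowest mean correlation with its own group, 0.933, against 0.959 to 0.988 for the other arrays. Tests of KO against WT neutrophils are therefore given with and without it, as are the counts between WT neutrophils and the other WT cell types.

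RefSeq promoter sequences (GRCm38.p6, from 250 bases before the start of transcription to 50 after it) were held for 26 of the 35 genes. They are shown for 5 genes because the synthesis genes shared a sequence feature that the choice of genes did not use. Each line gives the 150 bases before the start, read 5′ to 3′ on the gene's strand, with matches to CCAAT (the box bound by NF-Y, a usual partner of SREBP2) or to TCACNCCAC (the sterol element) in capitals on whichever strand they lie. The 3 synthesis genes are Hmgcs1 (HMG-CoA synthase, chr13:119690201-119690350, plus strand), Mvd (mevalonate diphosphate decarboxylase, chr8:122443423-122443572, minus strand) and Idi1 (isopentenyl diphosphate isomerase, chr13:8885456-8885605, plus strand). The other 2 are Ch25h (the oxysterol-making cholesterol hydroxylase, chr19:34475149-34475298, minus strand) and Lrp1 (an endocytic lipoprotein receptor, chr10:127621149-127621298, minus strand).
Hmgcs1: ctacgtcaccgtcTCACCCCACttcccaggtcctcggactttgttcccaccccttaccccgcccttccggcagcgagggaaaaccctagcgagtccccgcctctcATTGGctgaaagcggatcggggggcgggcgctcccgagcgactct
Mvd: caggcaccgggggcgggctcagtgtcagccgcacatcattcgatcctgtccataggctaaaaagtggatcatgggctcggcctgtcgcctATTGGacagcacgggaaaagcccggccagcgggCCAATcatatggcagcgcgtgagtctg
Idi1: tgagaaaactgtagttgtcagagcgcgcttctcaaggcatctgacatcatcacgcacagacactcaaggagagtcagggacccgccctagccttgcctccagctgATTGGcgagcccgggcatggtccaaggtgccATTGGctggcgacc
Ch25h: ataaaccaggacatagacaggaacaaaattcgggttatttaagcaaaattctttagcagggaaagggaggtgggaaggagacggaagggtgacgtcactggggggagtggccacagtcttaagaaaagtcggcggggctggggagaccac
Lrp1: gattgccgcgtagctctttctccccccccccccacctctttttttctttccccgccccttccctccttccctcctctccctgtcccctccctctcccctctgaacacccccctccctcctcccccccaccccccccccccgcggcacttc

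A CCAAT match on either strand occurred in at least 1 window of all 13 synthesis genes with an entry, with 1 to 5 matches each. Some genes had several windows, and Pmvk had a match in 1 of 2 and Dhcr7 in 1 of 3. A CCAAT match occurred in 4 of the 8 efflux and uptake genes with an entry (Mylip, Plin2, Cd36 and Pparg). Over all 27025 genes with a window, 41.1% had a match (37.4% of 32851 windows). The sterol element, present in 1.24% of windows, was matched in 1 of the 26 genes, Hmgcs1, where it begins 137 bases before the start and does not overlap the CCAAT match. The LXR element, a direct repeat of AGGTCA with any 4 bases between, was searched on both strands and was in 0.0152% of windows and in none of the 26, which says only that these letters are not in these short windows. A match is a description of letters and not of binding.

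In KO neutrophils 8 of the 12 efflux and uptake genes were higher than in WT neutrophils, whereas none of the 16 synthesis genes was higher. Of the 35 genes, 10 passed an adjusted p of 0.05 (limma on all 30 arrays, Benjamini-Hochberg over all 22103 clusters), 8 higher and 2 lower, which is 28.6% of them, against 19.9% of all clusters. Of the 12 efflux and uptake genes, 8 were higher and 1 lower, against 10.7% of all clusters higher and 9.14% lower. Their median difference, KO minus WT, was 1.11 log2 units, against -0.13 over all clusters. Of the 16 synthesis genes, 1 was lower and none higher, with a median difference of 0.05. That synthesis count of 1 ran from 0 to 4 when arrays were left out singly, with 4 without KO neutrophil replicate 5 and 2 without WT neutrophil replicate 4, and it was 3 under either quantile normalization. Without KO replicate 5, Nsdhl (9.49 to 9.84 in KO, 8.04 to 8.59 in WT) and Ebp (11.52 to 11.94, 9.25 to 11.44) lay above every WT array. Lss (6.98 to 7.09, 7.27 to 7.54) and Mvd (8.30 to 9.16, 9.47 to 10.15) then lay below. These ranges are not a list of the 4 calls in that fit, in which Sc5d kept its call. That none was higher is stated for the fit of all 30 arrays only. None of the 4 sterol sensing genes and none of the 3 fatty acid synthesis genes passed. The 2 groups of arrays did not overlap for 4 of the 35 genes, against 11.4% of all clusters. Without WT neutrophil replicate 4, again 10 of the 35 passed, 8 of them efflux and uptake genes. With the level of the 2015 broadly expressed clusters as a covariate 3 of the 35 passed, and when only the neutrophil arrays were fitted 5 did. The calls that ended are given beside each gene.

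**Figure D1:**
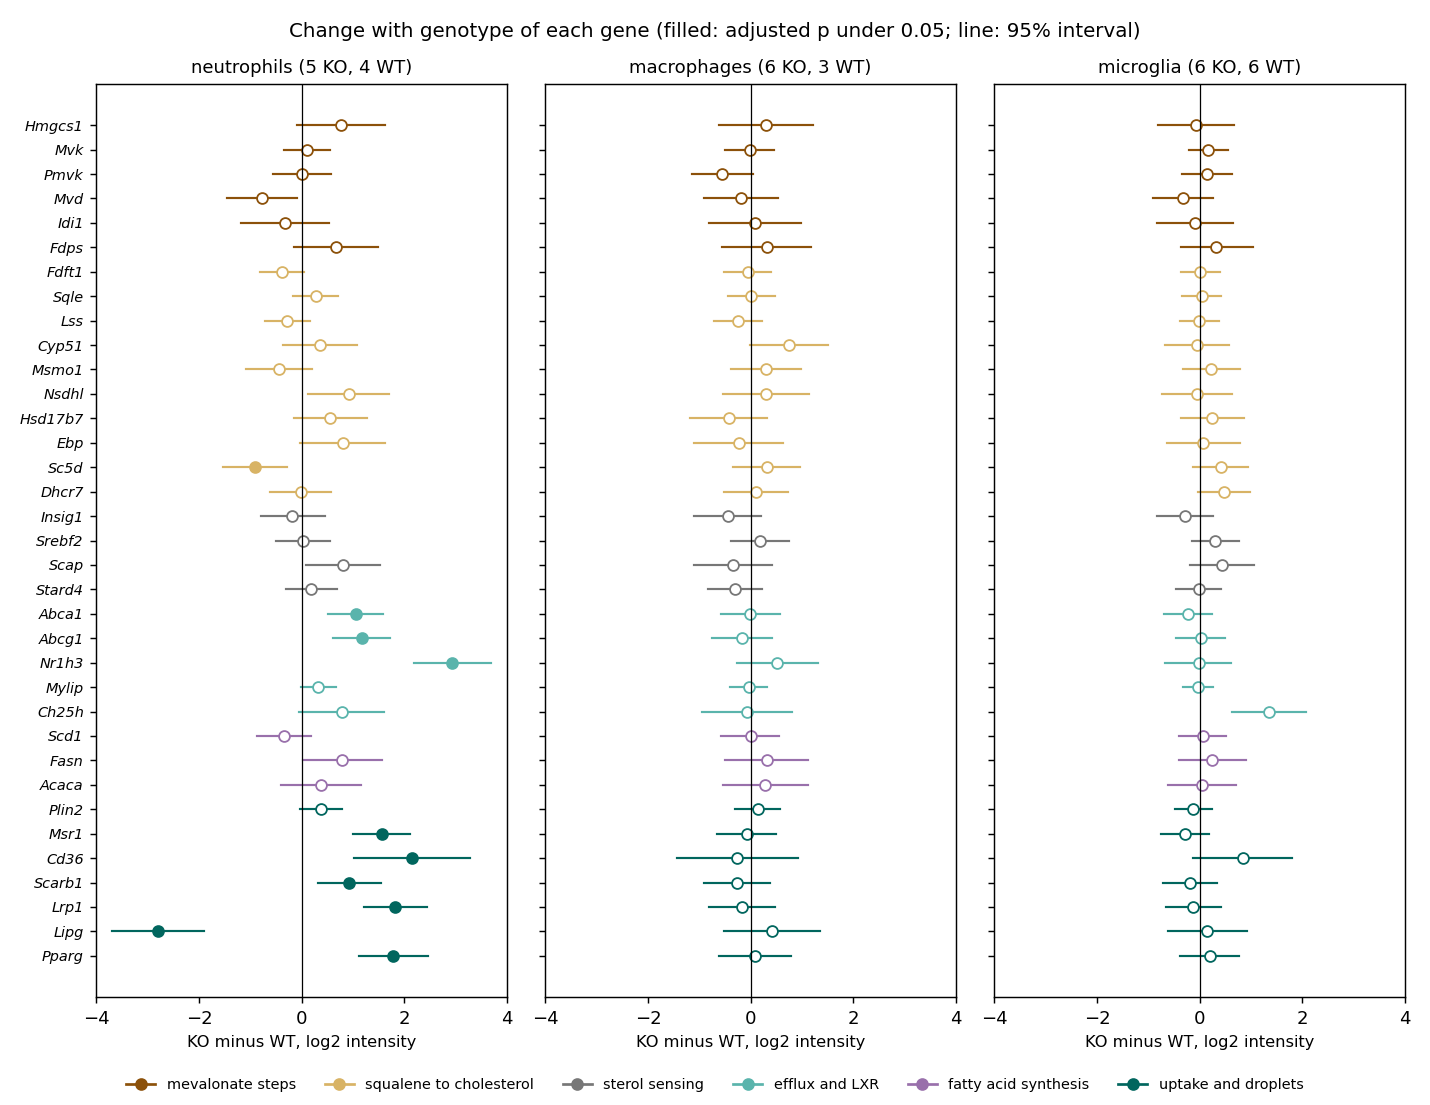
Difference between KO and WT in log2 intensity for each of the 35 genes (rows, coloured by role) in neutrophils, macrophages and microglia; points are limma estimates, lines their 95% intervals, and filled points have an adjusted p under 0.05. Filled points stand only in the neutrophil panel, 8 to the right of 0 and 2 to the left, and 9 of the 10 are efflux or uptake genes.

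Among the efflux genes, Nr1h3 changed most. Nr1h3 encodes LXR alpha, the sterol-activated receptor that raises Abca1 and Abcg1. It read 10.01, 8.71, 9.94, 9.50 and 9.15 in KO neutrophils, against 6.73, 6.74, 7.39 and 5.25 in WT neutrophils. Every KO array was above every WT array, and the difference was 2.94 log2 units (SE 0.37, adjusted p = 4.557e-06), 7.66-fold. Without WT neutrophil replicate 4 the difference was 2.51. The WT neutrophil mean of 6.52 lay below the median of all clusters (6.69), and the deposited table held no detection calls, so that level was not shown to be above background.

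Both exporters were also higher. Abca1, which moves cholesterol onto lipid-poor apolipoprotein A-I, read 13.56, 13.45, 13.42, 13.92 and 13.84 in KO neutrophils, against 12.74, 13.43, 12.70 and 11.48 in WT neutrophils. The KO arrays were tightly grouped, and WT replicate 2 lay within their range, with WT replicate 4 far below. The difference of 1.05 (SE 0.27, adjusted p = 0.006286) fell to 0.68 without WT replicate 4, with an adjusted p of 0.0516, so that call ended. It also ended with the broadly expressed level as a covariate (0.72, adjusted p = 0.3979) and with only the neutrophil arrays (adjusted p = 0.09201). Abcg1, which exports cholesterol to high-density lipoprotein, read 10.32, 9.36, 9.87, 9.79 and 9.18 in KO neutrophils, against 7.96, 9.39, 8.94 and 7.86 in WT neutrophils. Its groups overlapped through WT replicate 2, and the difference was 1.17 (SE 0.27, adjusted p = 0.003101). The call ended with the covariate (0.81, adjusted p = 0.3163) and with only the neutrophil arrays (adjusted p = 0.0832). The remaining efflux genes did not pass: Mylip, an LXR-induced ubiquitin ligase that lowers lipoprotein receptors, differed by 0.32 (95% interval -0.02 to 0.67), and Ch25h by 0.78 (-0.05 to 1.61).

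Uptake genes gave 5 of the higher calls. Cd36, a scavenger receptor for fatty acids and oxidized lipoproteins, read 13.73, 12.51, 14.22, 14.18 and 12.59 in KO neutrophils, against 12.87, 10.75, 11.11 and 10.42 in WT neutrophils. Only WT replicate 1 reached into the KO range. The difference was 2.16 (SE 0.55, adjusted p = 0.006509), or 1.87 without WT replicate 4. It dropped to 0.81 with the covariate, which ended the call (adjusted p = 0.7133), and the call also ended with only the neutrophil arrays (adjusted p = 0.05224). Pparg, a lipid-activated nuclear receptor that raises Cd36 in macrophages, read 8.19, 6.83, 7.35, 7.48 and 6.22 in KO neutrophils, against 5.51, 5.14, 5.65 and 5.40 in WT neutrophils. Its groups did not overlap (difference 1.79, SE 0.33, adjusted p = 0.0003251), and all 4 WT arrays were below the median cluster. With the covariate the difference was 1.29 and did not pass (adjusted p = 0.139).

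The endocytic and scavenger receptors were higher too. Lrp1, a large receptor for apolipoprotein E particles and many other ligands, read 15.57, 14.94, 15.52, 15.75 and 15.61 in KO neutrophils, against 14.63, 13.31, 12.48 and 14.19 in WT neutrophils. The groups did not overlap and the difference was 1.82 (SE 0.30, adjusted p = 0.0001043), or 2.00 without WT replicate 4. Msr1, the class A scavenger receptor for modified lipoproteins, read 12.60, 12.47, 12.26, 11.94 and 11.61 in KO neutrophils, against 11.59, 10.20, 10.71 and 9.97 in WT neutrophils. WT replicate 1 came just below the lowest KO array without crossing it, and the difference was 1.56 (SE 0.27, adjusted p = 0.0001782). With the covariate it was 0.59 and did not pass (adjusted p = 0.3481). Scarb1, the high-density lipoprotein receptor, read 9.29, 9.95, 9.76, 9.93 and 8.94 in KO neutrophils, against 8.62, 8.99, 8.13 and 8.82 in WT neutrophils. WT replicate 2 lay just above the lowest KO array. Its difference of 0.93 (SE 0.30, adjusted p = 0.02718) lost its call without KO replicates 2, 3 or 4, or WT replicate 3, left out singly, with adjusted p from 0.05663 to 0.1037. The call also ended under either quantile normalization (0.67 over all arrays and 0.66 within cell types), with only the neutrophil arrays (adjusted p = 0.06678) and with the covariate (0.57, adjusted p = 0.63). Plin2, the coat protein of lipid droplets, was among the brightest genes of the set, at 16.81 ± 0.13 in KO neutrophils and 16.44 ± 0.32 in WT neutrophils (SD), and did not pass (difference 0.38, 95% interval -0.03 to 0.79).

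**Figure D2:**
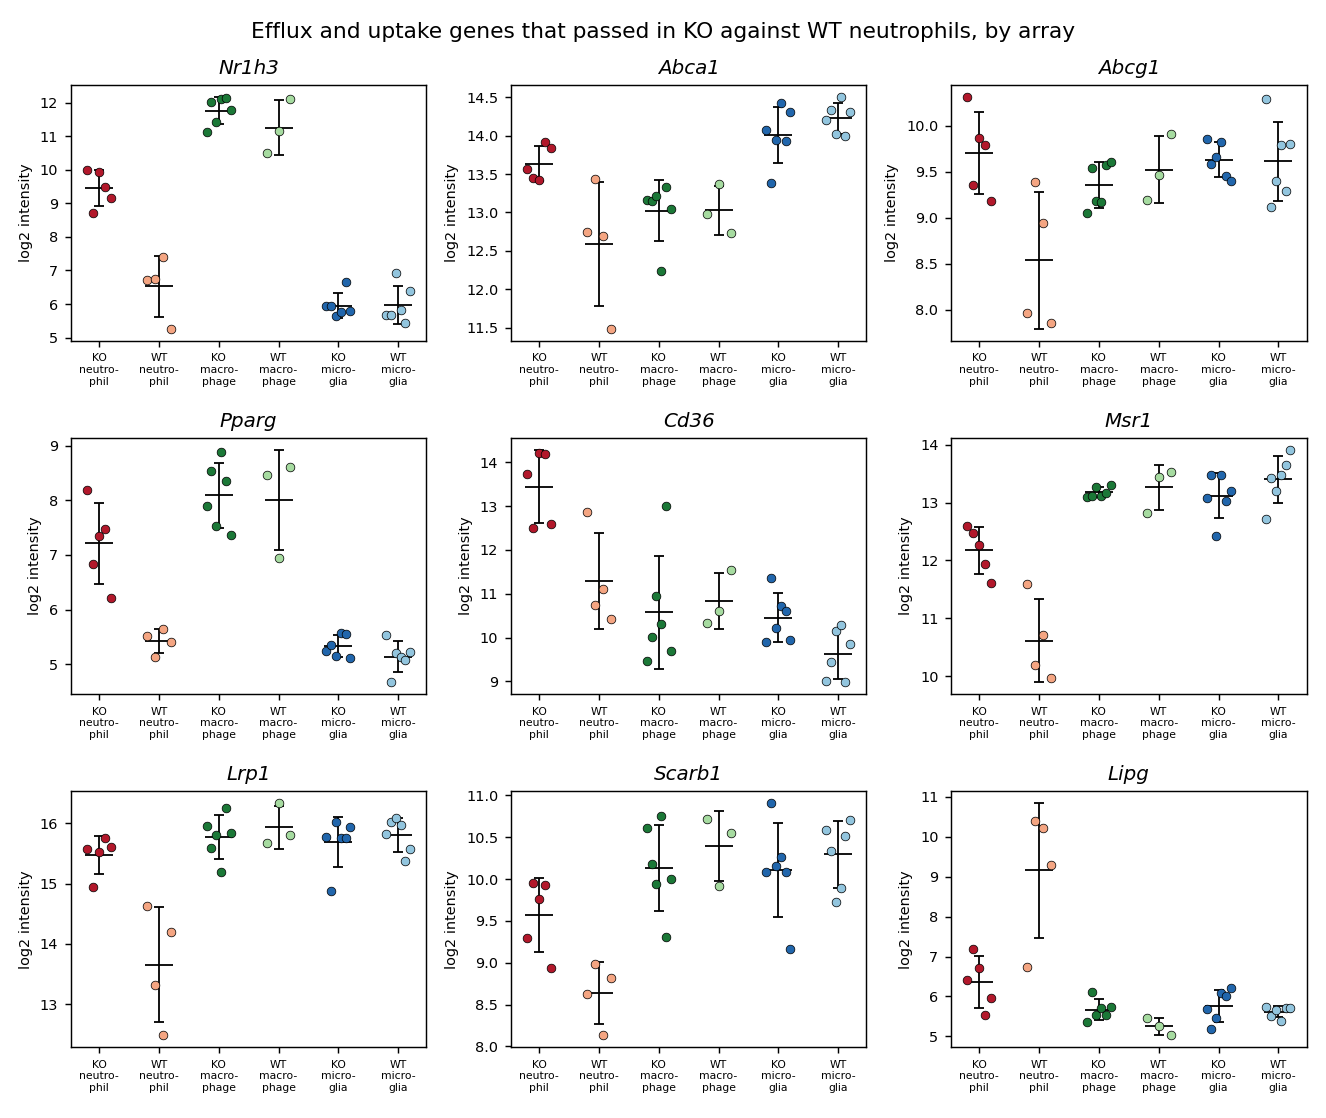
Log2 intensity of the 9 efflux and uptake genes that passed between KO and WT neutrophils, in each of the 30 arrays (points), with group means and SD (bars). In the neutrophil groups at the left of each panel, the KO mean is higher for 8 genes and lower for Lipg. The KO and WT neutrophil arrays do not overlap for 4 of the 9 (Nr1h3, Pparg, Msr1 and Lrp1). The KO and WT macrophage and microglia groups overlap.

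Lipg went the other way and was the most reduced gene of the set. Lipg encodes endothelial lipase, a secreted phospholipase that acts on high-density lipoprotein. It read 6.41, 7.18, 6.72, 5.53 and 5.95 in KO neutrophils, against 6.73, 10.40, 10.22 and 9.29 in WT neutrophils. The 3 higher WT arrays were well above all KO arrays, whereas WT replicate 1 lay within the KO range. The difference was -2.80 (SE 0.44, adjusted p = 5.204e-05). Sc5d, a sterol desaturase of the late cholesterol steps, was the synthesis gene that passed: it read 10.86, 11.24, 10.55, 11.05 and 11.36 in KO neutrophils, against 11.18, 12.87, 12.42 and 11.22 in WT neutrophils. WT replicates 2 and 3 carried that difference of -0.91 (SE 0.30, adjusted p = 0.03262), since the other 2 WT arrays lay within the KO range. Without WT replicate 2 it was -0.60 (adjusted p = 0.1563), and the call also ended without WT replicate 3 or without KO replicates 1, 3 or 4. It ended too with arrays centred on their median (-0.80, adjusted p = 0.0714), with only the neutrophil arrays (adjusted p = 0.1472) and with the covariate (-0.74, adjusted p = 0.4878).

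Without WT neutrophil replicate 4, the differences not yet given were 0.94 for Abcg1, 1.78 for Pparg, 1.34 for Msr1, 0.99 for Scarb1, -2.76 for Lipg and -1.15 for Sc5d, and all of these passed in that fit.

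The synthesis genes that did not pass spread to both sides of 0, from -0.78 for Mvd (95% interval -1.46 to -0.09) to 0.92 for Nsdhl (0.13 to 1.71), a dehydrogenase that removes a methyl group from sterols. Several intervals were wide, as for Hmgcs1 (-0.10 to 1.63), so a change within them was not detectable with 5 and 4 arrays. For the transcription factor gene Srebf2 the difference was 0.03 (-0.51 to 0.56) and for Insig1 -0.18 (-0.80 to 0.45). Of the 3 fatty acid genes, Fasn (fatty acid synthase) differed by 0.79 (0.02 to 1.56, adjusted p = 0.1325), Acaca (acetyl-CoA carboxylase) by 0.38 and Scd1 (a fatty acid desaturase) by -0.35.

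Other measurements moved with genotype in the neutrophil arrays, and their part in these differences was not tested. Of 10 monocyte or macrophage markers, 5 were higher and 1 lower in KO neutrophils, with a summed level of 17.88 to 18.53 log2 units per array, against 17.49 to 18.08 in WT neutrophils, and none was below the median cluster in either group. Ccr2, the chemokine receptor of recruited monocytes, averaged 10.67 in KO neutrophils and 8.59 in WT neutrophils. Ms4a7 (15.88 in KO, 13.80 in WT), Lyz2 (16.71, 15.28) and F13a1 (10.90, 9.33) of that list also had higher means in KO. Means were lower in KO for Ly6c2 (11.59 in KO, 12.28 in WT), Chil3 (14.04, 15.56) and Cd14 (14.75, 15.98). Of 9 neutrophil markers, 2 were lower and none higher (summed level 18.87 to 19.75 in KO, 19.82 to 20.42 in WT), and of 7 fibroblast or cartilage genes 5 were lower (10.66 to 13.37 in KO, 12.64 to 17.68 in WT). Of 9 microglia markers 2 were lower (summed level 14.88 to 16.11 in KO, 16.04 to 17.33 in WT). A summed level follows the brightest genes, and the average of these markers overlapped (9.42 to 11.26 in KO, 9.91 to 10.99 in WT). Their median difference was 0.01. Of 6 border macrophage markers 2 were higher and 1 lower (summed level 15.08 to 18.00 in KO, 14.67 to 16.98 in WT). By group mean Cbr2 (11.16 in KO, 7.77 in WT) and Siglec1 (8.13, 6.16) stood higher in KO, and Lyve1 (5.14, 6.01) lower. Oligodendrocyte markers, which would mark myelin, had 0 of 7 passing and a summed level of 8.35 to 8.58 in KO and 8.46 to 8.70 in WT neutrophils. With the level of the 2015 broadly expressed clusters as a covariate, the 3 genes that passed were Nr1h3 (1.96, adjusted p = 0.02052), Lrp1 (2.01, adjusted p = 0.01214) and Lipg (-2.34, adjusted p = 0.03832). The other 7 calls ended, as given above. Of those clusters 4 belong to Ebp, Plin2, Msr1 and Lrp1 themselves.

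The genes higher in KO neutrophils stood at different places relative to KO macrophages. Cd36 was 13.45 ± 0.84 in KO neutrophils and 10.57 ± 1.30 in KO macrophages (SD), 2.87 log2 units higher (SE 0.50, adjusted p = 5.421e-05). Abca1 differed by 0.61 (SE 0.24, adjusted p = 0.05062) and Abcg1 by 0.35 (SE 0.24, adjusted p = 0.2927), neither passing. Nr1h3 was lower in KO neutrophils than in KO macrophages (difference -2.31, SE 0.33, adjusted p = 4.009e-06). By group mean Pparg (7.21 against 8.09) and Msr1 (12.18 against 13.18) were lower in KO neutrophils too, and both passed. Scarb1 (9.57 against 10.13) and Lrp1 (15.48 against 15.77) were also lower, and neither passed. The synthesis genes Fdps, Sqle and Idi1 had their highest group means in macrophages. Their KO minus WT differences in neutrophils were 0.67 (95% interval -0.15 to 1.49), 0.27 (-0.17 to 0.71) and -0.33 (-1.19 to 0.53), none passing. Nr1h3 and Pparg, also highest in macrophages by group mean, were higher in KO than in WT neutrophils by 2.94 and 1.79, and both passed. Fdps, Sqle and Idi1 are examples, and their intervals include rises as well as falls. Of the markers highest in macrophages by group mean, Ms4a7, F13a1 and Ccr2 had higher means in KO than in WT neutrophils. Ly6c2 and Chil3, also highest in macrophages, had lower ones. Whether macrophage content of the neutrophil arrays had a part in any of these differences was not tested.

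In macrophages and microglia the set did not separate the genotypes. None of the 35 genes passed in KO against WT macrophages, where 0.00452% of all clusters did (1 cluster), nor in microglia, where 0% did. At an unadjusted p under 0.05 by the same limma fit, 0 genes of the set were found in macrophages and 1 in microglia. In macrophages the differences, KO minus WT, ran from -0.55 (Pmvk, phosphomevalonate kinase) to 0.75 (Cyp51, lanosterol demethylase), with Nr1h3 at 0.52 (95% interval -0.27 to 1.31). The microglial gene was Ch25h, which averaged 12.06 ± 0.84 in KO and 10.72 ± 0.59 in WT microglia (SD, n = 6 each), a difference of 1.35 (95% interval 0.63 to 2.07, adjusted p = 0.9999). In microglia the lowest, median and highest Ch25h values were 11.05, 12.07 and 13.08 in KO and 9.70, 10.85 and 11.30 in WT, so the ranges overlapped slightly.

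Whether the KO minus WT difference varied from one cell type to another was tested directly. Against the change in microglia, 7 of 35 genes passed in neutrophils (20%, against 5.79% of all clusters, 4.06% more positive and 1.73% more negative): the change was more positive for Nr1h3 by 2.96, Lrp1 by 1.95, Msr1 by 1.84, Pparg by 1.59 and Abca1 by 1.27, and more negative for Lipg (-2.95) and Sc5d (-1.32). Without KO neutrophil replicate 4 that number was 4, as Abca1, Pparg and Sc5d no longer passed. Abca1 also lost its call there without WT neutrophil replicate 4, Pparg without KO neutrophil replicate 1, and Sc5d when any of 14 arrays was left out singly. Under other settings Abca1 lost it with array weights, Sc5d with arrays centred on their median or a robust trended prior, and all 3 with the replicate block within genotype. Against the change in macrophages, 6 passed (17.1%, against 6.87% of all clusters, 4.36% more positive and 2.51% more negative): Nr1h3 by 2.42, Lrp1 by 1.99, Pparg by 1.70, Msr1 by 1.64 and Abcg1 by 1.33 were more positive, and Lipg (-3.22) was more negative. In that test Abcg1 lost its call when any of 10 arrays was left out singly (adjusted p from 0.053 to 0.1155), under both quantile normalizations (1.05 and 1.01) and with the block within genotype. Pparg lost it when any of 5 arrays was left out singly (adjusted p from 0.05176 to 0.1058) and with that block, and Msr1 with that block alone (adjusted p = 0.06147). Cd36 and Scarb1 passed in neither. Both tests share the neutrophil arrays. Between macrophages and microglia 0 of 35 passed (0% of all clusters), with 1 gene, Ch25h, at an unadjusted p under 0.05.

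Each role was also averaged per array, as a description, with every gene first centred on its mean over the 30 arrays. The 12 efflux and uptake genes averaged 0.24 ± 0.29 in KO neutrophils and -0.77 ± 0.24 in WT neutrophils (SD), and the arrays did not overlap (-0.17 to 0.55 in KO, -1.11 to -0.60 in WT). The 16 synthesis genes averaged -0.55 ± 0.12 in KO neutrophils and -0.63 ± 0.15 in WT neutrophils, with overlapping arrays. For synthesis the other groups stood at 0.42 ± 0.27 in KO macrophages, 0.37 ± 0.20 in WT macrophages, 0.19 ± 0.21 in KO microglia and 0.09 ± 0.23 in WT microglia. For efflux and uptake those 4 groups lay close together, at 0.12 in KO macrophages, 0.11 in WT macrophages, 0.13 in KO microglia and 0.00 in WT microglia.

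**Figure D3:**
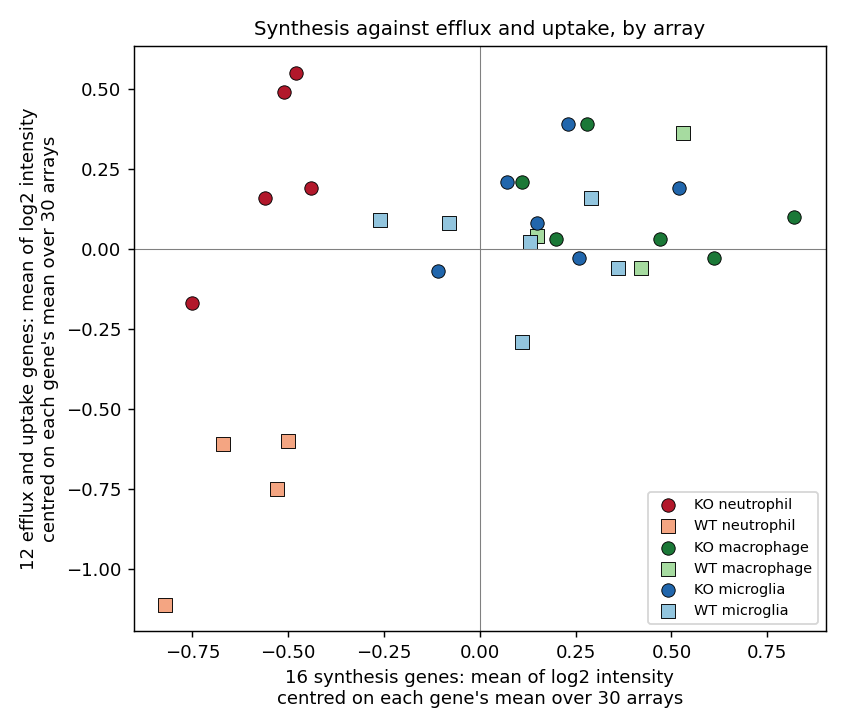
Mean centred log2 intensity of the 16 synthesis genes (horizontal) and of the 12 efflux and uptake genes (vertical), 1 point per array; circles are KO, squares WT. KO neutrophils sit above WT neutrophils at a similar horizontal position, and both sit to the left of all macrophage arrays.

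More of these genes passed between cell types than between genotypes. In WT mice, 23 of 35 genes passed between neutrophils and microglia (65.7%, against 54.3% of all clusters), 4 higher and 19 lower in neutrophils, against 22% of clusters higher and 32.3% lower. Their median difference was -0.82, against -0.06 over all clusters. Synthesis genes made up 2 of the higher and 9 of the lower calls. Without WT neutrophil replicate 4 the number was 21.

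The most neutrophil-weighted gene was Lipg, at 6.73, 10.40, 10.22 and 9.29 in WT neutrophils, against 5.39, 5.68 and 5.73 (lowest, median and highest) in WT microglia, a difference of 3.54 (SE 0.42, adjusted p = 3.044e-08). The groups did not overlap, and every microglial value was below the median cluster. Cd36 read 12.87, 10.75, 11.11 and 10.42 in WT neutrophils, against 8.98, 9.65 and 10.29 in WT microglia, and was 1.67 higher in WT neutrophils (SE 0.53, adjusted p = 0.008963). Mvd read 9.63, 10.15, 9.47 and 9.83 in WT neutrophils, against 8.25, 8.68 and 8.81 (lowest, median and highest) in WT microglia. It was the one mevalonate gene higher in WT neutrophils, by 1.17 (SE 0.32, adjusted p = 0.002763).

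Ch25h marked the microglia. It read 5.97, 6.06, 5.98 and 5.97 in WT neutrophils, against 9.70, 10.85 and 11.30 (lowest, median and highest) in WT microglia, a difference of -4.72 (SE 0.39, adjusted p = 3.359e-11). The neutrophil values were below the median cluster and nearly identical. Fasn read 8.64, 7.71, 7.21 and 8.82 in WT neutrophils, against 10.83, 11.73 and 12.28 in WT microglia, and was -3.50 apart (SE 0.36, adjusted p = 2.16e-09). Msr1 read 11.59, 10.20, 10.71 and 9.97 in WT neutrophils, against 12.72, 13.46 and 13.91 in WT microglia (difference -2.78, SE 0.26, adjusted p = 3.284e-10). Neither gene's groups overlapped.

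Genes of the steps from squalene to cholesterol were among the lower calls in WT neutrophils: Nsdhl by -2.53, Hsd17b7 (a sterol ketoreductase) by -2.27, Ebp (a sterol isomerase) by -1.82 and Sqle (squalene epoxidase, an early control point after mevalonate) by -1.36. Of the exporters, Abca1 was -1.64 and Abcg1 -1.08 from the microglial level.

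Between macrophages and microglia, 3 of the 6 mevalonate genes and 3 of the 4 sterol sensing genes were higher in macrophages, and Ch25h was lower. In WT mice 16 of 35 genes passed (45.7%, against 37.5% of all clusters), 11 higher and 5 lower in macrophages, against 9.62% of clusters higher and 27.9% lower. The higher calls held 5 synthesis genes (Mvd, Idi1, Pmvk, Sqle and Fdft1, squalene synthase) and 3 of the 4 sterol sensing genes (Insig1, Srebf2 and Stard4, a sterol carrier). Fasn, Abca1, Mylip and Ch25h were lower, with Dhcr7, the last reductase of the pathway. The other 10 synthesis genes did not pass. The median difference was 1.03 over the 6 mevalonate genes and -0.30 over the 10 genes from squalene to cholesterol, against -0.25 over all clusters.

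Nr1h3 had the largest difference on the macrophage side. It read 10.49, 11.17 and 12.11 in WT macrophages, against 5.42, 5.75 and 6.92 (lowest, median and highest) in WT microglia. The groups were far apart, by 5.27 log2 units (SE 0.39, adjusted p = 4.887e-12). By group mean the order of Nr1h3 was KO macrophages (11.77), WT macrophages (11.25), KO neutrophils (9.46), WT neutrophils (6.52), WT microglia (5.98) and KO microglia (5.96). The neighbouring macrophage groups, the microglia groups, and WT neutrophils against WT microglia did not differ past the threshold. Pparg read 8.47, 6.95 and 8.60 in WT macrophages, against 4.67, 5.16 and 5.54 in WT microglia (difference 2.87, SE 0.34, adjusted p = 9.833e-08). Insig1 read 10.92, 9.29 and 10.44 in WT macrophages, against 7.97, 8.49 and 9.28 in WT microglia. Its closest arrays nearly touched, and the difference was 1.68 (SE 0.32, adjusted p = 0.0001321).

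On the lower side, Ch25h read 5.33, 5.01 and 5.91 in WT macrophages and was -5.30 from WT microglia (SE 0.43, adjusted p = 4.164e-11). Fasn read 9.97, 9.05 and 9.95 in WT macrophages, a difference of -1.94 (SE 0.39, adjusted p = 0.0002686). Mylip read 15.06, 15.41 and 15.28 in WT macrophages, against 16.20, 16.49 and 16.63 (lowest, median and highest) in WT microglia. That gene was bright everywhere, and the groups did not overlap (difference -1.22, SE 0.18, adjusted p = 2.822e-06).

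**Figure D4:**
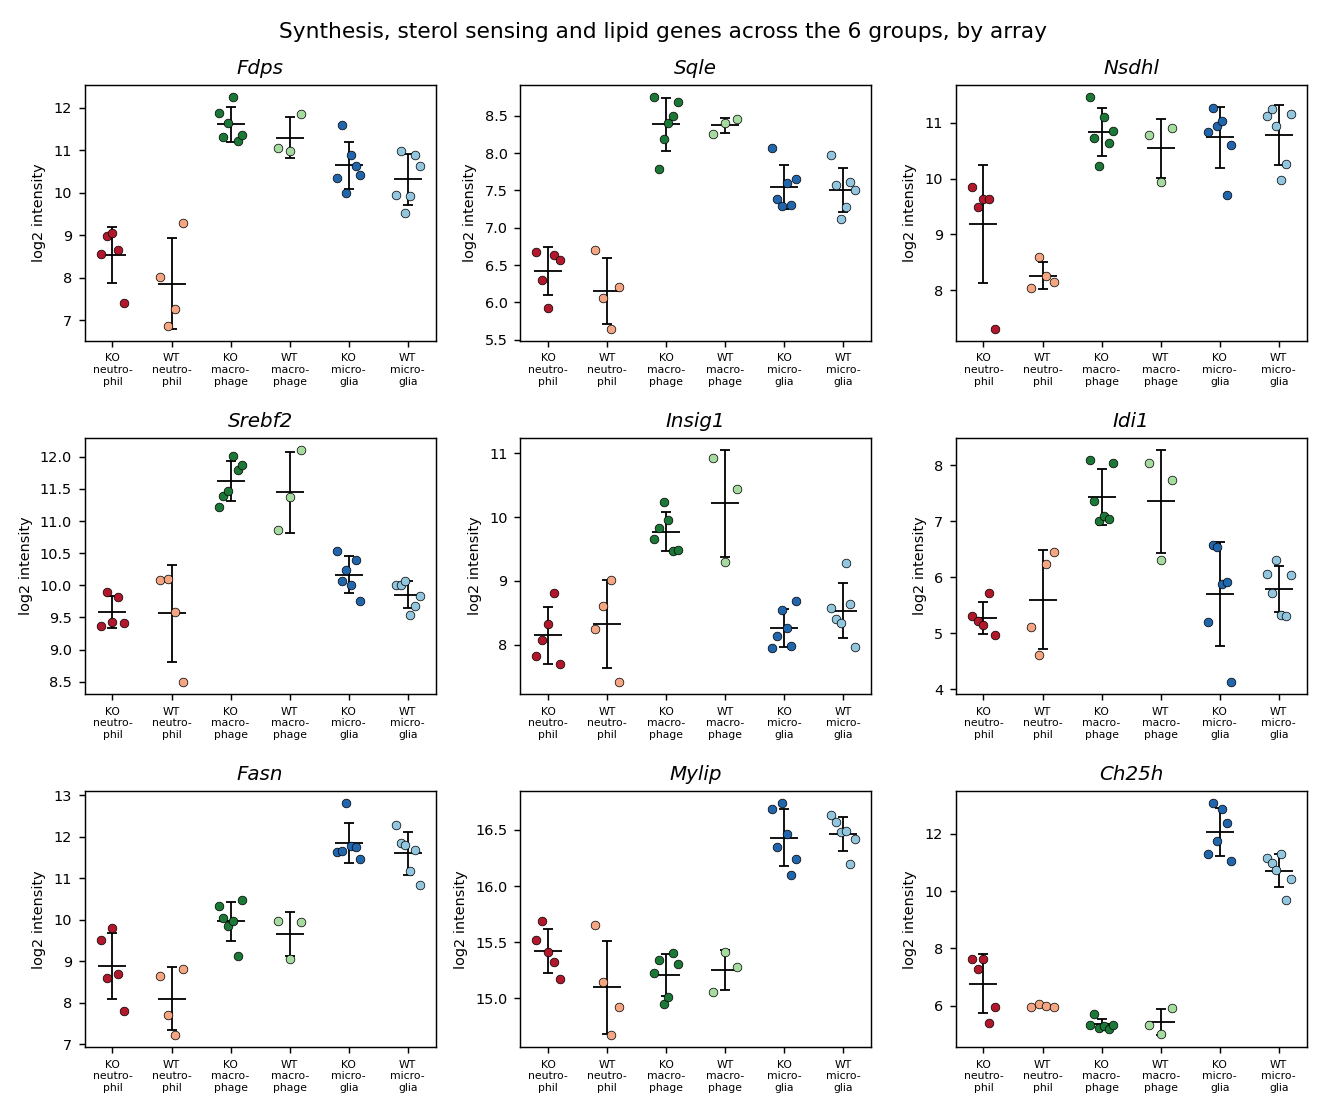
Log2 intensity of 9 synthesis, sterol sensing and lipid genes in each of the 30 arrays (points), with group means and SD (bars). By group mean, Fdps, Sqle, Srebf2, Insig1 and Idi1 are highest in macrophages of both genotypes, Fasn, Mylip and Ch25h in microglia, and Nsdhl is lowest in neutrophils.

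Neutrophils and macrophages, which both arrive from blood after stroke, differed in most of the set. In WT mice 21 of 35 genes passed (60%, against 51.6% of all clusters), 3 higher and 18 lower in neutrophils, against 29.6% of clusters higher and 22% lower. That number was 22 without WT neutrophil replicate 4. The 3 higher genes were Lipg, Sc5d and Lss (lanosterol synthase). Lipg read 6.73, 10.40, 10.22 and 9.29 in WT neutrophils, against 5.46, 5.27 and 5.02 in WT macrophages, and was 3.91 higher in WT neutrophils (SE 0.50, adjusted p = 3.377e-07). Sc5d read 11.18, 12.87, 12.42 and 11.22 in WT neutrophils, against 11.55, 9.97 and 10.50 in WT macrophages. Its groups overlapped through WT macrophage replicate 1 (difference 1.25, SE 0.35, adjusted p = 0.003646). Lss read 7.27, 7.47, 7.43 and 7.54 in WT neutrophils, against 6.21, 7.02 and 6.74 in WT macrophages. The groups of that dim gene did not overlap (difference 0.77, SE 0.25, adjusted p = 0.01088).

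Among the lower genes, Nr1h3 was -4.73 from WT macrophages (SE 0.42, adjusted p = 5.037e-10) and Msr1, at 12.82, 13.44 and 13.52 in the 3 WT macrophage arrays, was -2.64 from them (SE 0.31, adjusted p = 7.828e-08). Fdps, the farnesyl diphosphate synthase that feeds both sterols and protein prenylation, read 8.01, 6.86, 7.26 and 9.29 in WT neutrophils, against 11.04, 10.99 and 11.85 in WT macrophages. It was the synthesis gene furthest apart (difference -3.44, SE 0.46, adjusted p = 7.138e-07). Pmvk, Idi1, Sqle, Nsdhl, Hsd17b7 and Ebp were also lower in WT neutrophils, from -1.76 (Idi1) to -2.28 (Nsdhl) log2 units, as were Insig1 and Srebf2.

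The KO arrays share no sample with the WT ones, so the same cell type comparisons in KO mice are separate measurements. Between KO neutrophils and KO microglia 19 of 35 passed (45% of all clusters), 5 higher and 14 lower (13% and 32% of all clusters). Of these, 14 were called in the same direction in WT, which is 73.7% of the KO and 60.9% of the WT calls. Between KO macrophages and KO microglia 19 passed (43.3% of all clusters), 11 higher and 8 lower (11.8% and 31.4% of all clusters), with 14 shared (73.7% of the KO and 87.5% of the WT calls). Between KO neutrophils and KO macrophages 22 passed (31.7% of all clusters), 3 higher and 19 lower (15.9% and 15.8% of all clusters), with 16 shared (72.7% of the KO and 76.2% of the WT calls). No gene was called in opposite directions in the 2 genotypes. The share of such shared calls over all clusters was not computed, so this agreement is not shown to be particular to these genes. In KO neutrophils Nr1h3 was 3.51 and Pparg 1.88 above KO microglia, and neither gene passed between WT neutrophils and WT microglia. Lipg, 3.54 higher in the WT comparison, was 0.59 higher in KO (SE 0.39, adjusted p = 0.2343).

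**Figure D5:**
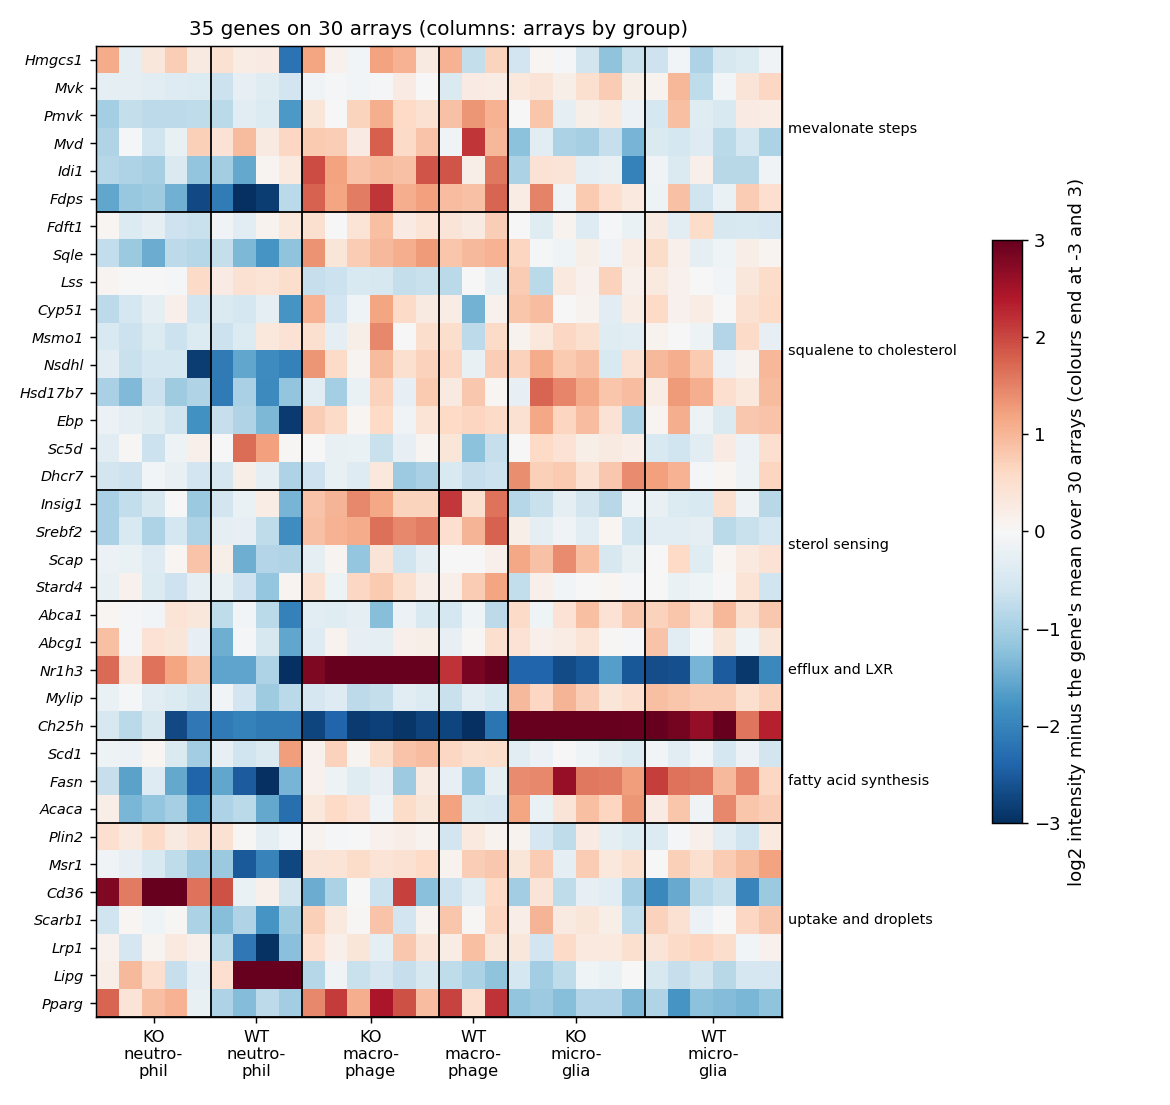
Log2 intensity of the 35 genes (rows, grouped by role) on the 30 arrays (columns, grouped as labelled), each minus the gene's mean over all arrays; colours end at -3 and 3. Nr1h3 and Pparg are high in macrophages, Ch25h and Fasn in microglia, Lipg in 3 WT neutrophil arrays and Cd36 in the KO neutrophils.

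Along the synthesis pathway the genes did not share 1 pattern over cell types. Hmgcs1, at the entry to the mevalonate steps, averaged 7.82 ± 0.51 in KO neutrophils, 7.06 ± 1.27 in WT neutrophils, 8.00 ± 0.59 in KO macrophages, 7.70 ± 0.93 in WT macrophages, 6.88 ± 0.46 in KO microglia and 6.94 ± 0.32 in WT microglia (SD). It was higher in KO macrophages than in KO microglia by 1.12 (SE 0.36, adjusted p = 0.01316), and it did not pass between the same WT groups. Sqle was ordered macrophages, microglia, neutrophils in both genotypes: 6.42 ± 0.32 in KO neutrophils, 6.15 ± 0.44 in WT neutrophils, 8.39 ± 0.36 in KO macrophages, 8.38 ± 0.10 in WT macrophages, 7.55 ± 0.30 in KO microglia and 7.51 ± 0.29 in WT microglia. Each of its 3 cell type differences passed in both genotypes. Dhcr7, which makes cholesterol in the last step, was instead highest in microglia, at 9.39 ± 0.39 in KO and 8.92 ± 0.60 in WT, against 7.86 to 8.08 as the means of the other 4 groups.

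Of the 4 sensing genes, the 3 higher in WT macrophages than in WT microglia have been named. Srebf2 averaged 9.59 ± 0.25 in KO neutrophils, 9.56 ± 0.76 in WT neutrophils, 11.63 ± 0.31 in KO macrophages, 11.45 ± 0.63 in WT macrophages, 10.17 ± 0.28 in KO microglia and 9.85 ± 0.21 in WT microglia (SD). Scap, the escort of SREBP2, did not follow Srebf2: it was lower in KO macrophages than in KO microglia by -0.92 (SE 0.30, adjusted p = 0.01446). Acaca, like Fasn, was lower in neutrophils than in microglia, by -1.72 in KO (SE 0.34, adjusted p = 0.0001424) and -2.05 in WT (SE 0.36, adjusted p = 2.167e-05). Scd1 was dim, with group means from 5.31 to 6.21, all below the median cluster. Plin2 was bright and nearly level, with group means from 16.13 in KO microglia to 16.81 in KO neutrophils, a difference that passed (0.68, SE 0.18, adjusted p = 0.002847).

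Other genes of the pathway that are not in the set were counted in the same way. Of 7 further measured genes of sterol synthesis and its control, 3 passed in KO against WT neutrophils, against 19.9% of all clusters. Acat1 (0.77, SE 0.21) and Acly (0.67, SE 0.15), which handle acetyl-CoA units, were higher, and Lbr, a lamin receptor with sterol reductase activity, was lower (-1.20, SE 0.38). Of 25 further measured lipid-handling genes, 10 were higher and 2 lower, against 10.7% and 9.14% of all clusters. The higher ones included Npc2 (1.47, SE 0.29) and Lipa (1.65, SE 0.32), which free cholesterol in lysosomes. Fabp4 (2.49, SE 0.60) and Fabp5 (1.43, SE 0.37), fatty acid carriers, were higher too, as were Elovl5 (2.33, SE 0.39) and Fads1 (1.59, SE 0.24), which lengthen and desaturate polyunsaturated fatty acids. Dgat2, a triglyceride synthase (-2.26, SE 0.30), and the oxidized lipoprotein receptor Olr1 (-1.51, SE 0.44) were lower. The median over the 25 was -0.07, close to the -0.13 over all clusters. None of these genes passed in macrophages or microglia.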

How the data were processed

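Neutrophils, macrophages and microglia were profiled on 30 Affymetrix Clariom HT mouse arrays. The authors deposited RMA values per the submitters' processing notes, as linear intensity for 22103 transcript clusters, with the version of RMA and the set of arrays normalized together not given in the sources used here. RMA subtracts background and normalizes between arrays, so small shifts of many genes can be reduced. Here the log2 of each deposited intensity was taken with no pseudocount and no filter. Genes were named from the platform annotation, keeping clusters with 1 symbol and, per gene, the brightest. limma 3.58.1 (R 4.3.3) was used to fit 1 mean per group to the 30 arrays (24 residual degrees of freedom), with Benjamini-Hochberg adjustment over all clusters. A gene passed under 0.05. All adjusted p are limma's, differences carry the model's SE, and levels carry the SD over arrays. The fit was tested on simulated data. The small number of arrays limits precision, and depth does not apply.

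The genes, lists, markers and tests were chosen with earlier results of these data known. Values in every array are given for genes that passed between KO and WT, and for the 3 most higher and 3 most lower genes passing in each WT cell type comparison. Promoter windows and coordinates are from RefSeq, GRCm38.p6. Arrays were not treated as paired by replicate number in the main fit. Correlations of deviations between same-numbered arrays ran from -0.202 to 0.261 within 13 pairs of a cell type. Within 26 pairs of a genotype they ran from -0.162 to 0.158. They were not set against pairs with different numbers, so they do not settle whether arrays shared mice. As alternatives, arrays were quantile normalized (together or by cell type) or centred on their median; the model was given array weights, a robust trended prior, a block for replicate number, a covariate for broadly expressed clusters, or fewer arrays (only those compared, or all but 1); and the dimmest 25% of clusters were dropped.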

Additional observations from a re-analysis of the deposited data

Results flagged for a closer look

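Of 175 combinations of gene and group with 4 to 10 arrays, 16 held an array far from the others by Dixon's criterion, against about 1 in 20 expected by chance. In KO neutrophils, replicate 5 was low for Nsdhl (7.30, others 9.49 to 9.84) and Ebp (10.31, others 11.52 to 11.94) and high for Lss (7.60, others 6.98 to 7.09). Replicate 1 of that group was low for Pmvk (7.48, others 7.70 to 7.78), and replicate 2 was low for Lrp1 (14.94, others 15.52 to 15.75). In WT neutrophils, replicate 4 was low for Hmgcs1 (5.16, others 7.60 to 7.84) and Cyp51 (5.67, others 6.92 to 7.15), and replicate 2 was high for Ch25h (6.06, others 5.97 to 5.98).

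In KO macrophages, single arrays stood out for Mvk (replicate 5, 7.03, others 6.67 to 6.80), Abca1 (replicate 4, 12.24, others 13.05 to 13.33) and Ch25h (replicate 2, 5.71, others 5.18 to 5.33). In KO microglia they did for Ebp (replicate 6, 11.18, others 12.56 to 13.29), Stard4 (replicate 1, 5.24, others 5.91 to 6.13), Nr1h3 (replicate 5, 6.67, others 5.64 to 5.94), Fasn (replicate 3, 12.81, others 11.47 to 11.78) and Lrp1 (replicate 2, 14.87, others 15.75 to 16.03). No such array was found in WT microglia, and the 3 WT macrophage arrays were too few to examine.

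The change with genotype differed between neutrophils and microglia for 7 genes and between neutrophils and macrophages for 6, by the limma test of the difference itself. Against microglia these were Nr1h3 (2.96, adjusted p = 0.0008255), Msr1 (1.84, adjusted p = 0.002423), Lipg (-2.95, adjusted p = 0.002549), Lrp1 (1.95, adjusted p = 0.003755), Pparg (1.59, adjusted p = 0.02601), Abca1 (1.27, adjusted p = 0.02949) and Sc5d (-1.32, adjusted p = 0.04642). Against macrophages they were Lipg (-3.22, adjusted p = 0.00417), Lrp1 (1.99, adjusted p = 0.007936), Nr1h3 (2.42, adjusted p = 0.00806), Msr1 (1.64, adjusted p = 0.01285), Pparg (1.70, adjusted p = 0.02922) and Abcg1 (1.33, adjusted p = 0.03796).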

How the results depend on the processing

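No result reversed under any setting tried. Of the 35 genes, 10 passed between KO and WT neutrophils, and 5 did when only the arrays compared were fitted (fewer samples), all of them efflux and uptake genes; with the broadly expressed level as a covariate it was 3, again all efflux and uptake. The synthesis genes passing there, 1 as reported, numbered 3 under quantile normalization over all arrays, 3 under quantile normalization within cell types, 3 with array weights, 2 with the replicate block, and 0 with arrays centred on their median, with only the arrays compared or with the covariate. With the replicate number as a block, 11 genes passed between KO and WT neutrophils; with the block within genotype the difference in genotype change passed for 4 genes against microglia and 3 against macrophages, and the other counts stayed within 1.5 times. The replicate numbers share no stated source, and whether they pair the arrays was not settled.

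With each array left out in turn, the ranges were 8 to 14 genes between KO and WT neutrophils, 0 to 4 synthesis genes, 8 to 10 efflux and uptake genes, 4 to 10 genes for the genotype change against microglia and 4 to 8 against macrophages. The cell type counts ranged in WT from 21 to 23, 13 to 17 and 20 to 22, and in KO from 16 to 20, 17 to 20 and 18 to 24, for neutrophils against microglia, macrophages against microglia and neutrophils against macrophages. Counts of 0 stayed at 0. Nr1h3, Lrp1 and Lipg passed between KO and WT neutrophils under every setting tried. The causes of the moved counts other than fewer samples were not tested. No background measure came with the arrays, so dim genes cannot be told from background.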
